A study of Mus musculus with 3 samples.

Results

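The MHC class I presentation genes followed here were 10 of the 27998 genes in the count matrices: B2m, H2-K1, H2-D1, Tap1, Tap2, Tapbp, Psmb8, Psmb9, Psmb10 and Nlrc5. They were taken by gene symbol, and all 10 were present in every matrix. Values were single-cell RNA counts of regulatory T cells (Tregs), sorted as GFP+ CD4+ CD3+ CD45+ cells from adult mice of the Foxp3 reporter strain C.Cg-Foxp3tm2Tch/J. There was 1 library of back epidermis, 1 of dermis and 1 of lymph node, and no tissue had a second library. Thermolysin was used to part the skin layers, the dermis was then digested with collagenase, and lymph node was mashed. The 10x Genomics 3′ kit was of version v3 for both skin layers and v2 for lymph node, so tissue and kit cannot be told apart in any difference from lymph node. How many animals stood behind a library, and their sex, is not stated in the labels.

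Class I molecules show peptides from inside a cell to CD8 T cells, and nearly all nucleated cells carry them. A heavy chain (H2-K1 or H2-D1) pairs with the light chain beta-2-microglobulin (B2m). The peptides are cut by the proteasome, moved into the endoplasmic reticulum by the Tap1 and Tap2 transporter, and loaded with the help of tapasin (Tapbp). In lymphoid cells and under interferon, the catalytic subunits Psmb8, Psmb9 and Psmb10 take the places of Psmb5, Psmb6 and Psmb7 and form the immunoproteasome. Nlrc5 encodes the transactivator of class I genes.

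The 3 libraries held 297 epidermal, 875 dermal and 9400 lymph node cells with at least 500 UMIs (unique molecular identifiers, 1 per captured transcript) and at most 10% mitochondrial UMIs. Their totals were 2205131 UMIs in epidermis, 4630059 in dermis, against 32906839 in lymph node, at medians of 6671 UMIs per epidermal, 4726 per dermal and 3022 per lymph node cell. A UMI of Cd3d, Cd3e, Cd3g or Cd4 was found in 91.9% of epidermal, 97.0% of dermal, against 99.8% of lymph node cells, while a Foxp3 UMI was found in 39.7% of epidermal, 47.0% of dermal, against 7.17% of lymph node cells. A set of 41 cell barcodes occurred in both skin libraries, 13.8% of epidermal and 4.69% of dermal cells, and none in lymph node. Of these, 33 were deeper in epidermis, where the dermal copy had a median of 8.06% of the epidermal UMIs, and 8 were deeper in dermis, with a median of 4.70% in the epidermal copy. Without the 41 shared barcodes, 256 epidermal and 834 dermal cells were left. Skin values without them are given beside part of the results below. Where none are given, as for the correlations over clusters, values are from all cells kept.

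The strain name places the reporter on the BALB/c background (H-2d haplotype), while reads were mapped to mm10, the C57BL/6 genome (H-2b haplotype). H2-K1 and H2-D1 reads were therefore counted against alleles of another haplotype, and H2-L was not in the gene table. Whether this lost reads was not tested; the strain label was the same in all 3 libraries. On the C57BL/6 transcripts, 0.177% of the 90-base windows in the last 400 bases of H2-K1 occurred in another gene, and 0% for the other 9 members.

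Of the members, 7 lie within the MHC region of chromosome 17. On mm10, with gene bounds from GENCODE, Tapbp was at chr17:33915899-33929292, H2-K1 at chr17:33996017-34000347, Psmb9 at chr17:34181987-34187764, Tap1 at chr17:34187553-34197225, Psmb8 at chr17:34197721-34201454, Tap2 at chr17:34203527-34216321 and H2-D1 at chr17:35262730-35267499. The others were B2m at chr2:122147686-122153083, Nlrc5 at chr8:94434356-94527272 and Psmb10 at chr8:105935735-105938444.

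Promoter windows of 300 bases, 250 before to 50 after the RefSeq start site on GRCm38.p6, were at hand for 8 members, and Tap2 and Nlrc5 are named only. Those of the light chain and both heavy chains are shown because these 3 genes make up most of the members' transcripts, and that of Psmb9 because it overlaps the Tap1 window by 275 of 300 bases. Tap1 and Psmb9 run head to head, with start sites 226 bases apart, at chr17:34187556 and chr17:34187330. Capitals mark matches, on either strand, to GAAA, any 2 bases and GAAA (the form of an interferon-stimulated response element), GGGATTCCC (a form of the kappa B site) and CCAAT (read as ATTGG on the other strand). The windows run 5′ to 3′ on the gene's strand: B2m chr2:122147437-122147736 (+), H2-K1 chr17:34000298-34000597 (-), H2-D1 chr17:35262844-35263143 (+) and Psmb9 chr17:34187281-34187580 (-).
B2m: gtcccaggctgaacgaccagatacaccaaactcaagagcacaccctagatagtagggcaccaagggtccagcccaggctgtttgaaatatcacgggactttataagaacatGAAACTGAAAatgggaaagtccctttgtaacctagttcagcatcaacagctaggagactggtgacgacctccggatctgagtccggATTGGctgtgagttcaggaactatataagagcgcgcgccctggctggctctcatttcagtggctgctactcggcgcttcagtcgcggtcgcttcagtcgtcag
H2-K1: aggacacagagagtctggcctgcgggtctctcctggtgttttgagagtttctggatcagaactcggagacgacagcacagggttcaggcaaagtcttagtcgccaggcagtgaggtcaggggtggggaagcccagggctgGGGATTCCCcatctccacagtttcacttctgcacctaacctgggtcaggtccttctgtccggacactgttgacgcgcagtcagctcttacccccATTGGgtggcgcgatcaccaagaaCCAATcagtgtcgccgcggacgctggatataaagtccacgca
H2-D1: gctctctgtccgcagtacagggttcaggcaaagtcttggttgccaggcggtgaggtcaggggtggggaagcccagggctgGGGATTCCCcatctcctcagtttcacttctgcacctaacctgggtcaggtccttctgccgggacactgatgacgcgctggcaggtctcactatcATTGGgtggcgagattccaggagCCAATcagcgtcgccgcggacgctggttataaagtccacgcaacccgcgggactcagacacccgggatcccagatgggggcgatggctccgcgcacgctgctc
Psmb9: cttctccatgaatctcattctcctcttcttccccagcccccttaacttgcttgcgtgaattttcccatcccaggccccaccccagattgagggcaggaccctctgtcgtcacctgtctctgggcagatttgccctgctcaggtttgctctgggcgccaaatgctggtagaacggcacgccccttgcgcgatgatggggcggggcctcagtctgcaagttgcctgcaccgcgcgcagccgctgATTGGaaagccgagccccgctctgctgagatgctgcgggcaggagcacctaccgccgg

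B2m held 1 match to the interferon-stimulated response element form, at position -139 from the start site, and 1 CCAAT match. Each heavy chain gene held 1 GGGATTCCC match and 2 CCAAT matches. In the shared Tap1 and Psmb9 stretch, only CCAAT was found among the searched motifs. Of the windows not printed, Psmb8 held 1 TTCNNNGAA match (the form of a gamma-activated site), Tapbp 2 CCAAT matches, and Psmb10 none of the 4 motifs. Among all 27025 promoter windows in the RefSeq table, 8.47% held TTCNNNGAA, 3.49% the interferon-stimulated response element form, 0.370% GGGATTCCC and 37.9% CCAAT. GGGATTCCC was added to the search after the windows had been viewed. None of the marked stretches overlap each other, and a match describes letters in a window, not binding.

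Together, the 10 genes took nearly the same share of the pooled UMIs of every library. They summed to 13005 CPM (UMIs scaled to a common library total; 12855 to 13156 by exact 95% Poisson limits) in epidermis, 12729 CPM (12626 to 12832) in dermis, against 12950 CPM (12911 to 12989) in lymph node, or 1.30% of UMIs in epidermis, 1.27% in dermis, against 1.30% in lymph node. Intervals here and below cover counting error only. Cells of 1 library do not replicate a tissue, so tissues are compared without a test. Within that near-constant sum, the light chain, the heavy chains and the immunoproteasome were apportioned differently.

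**Figure D1:**
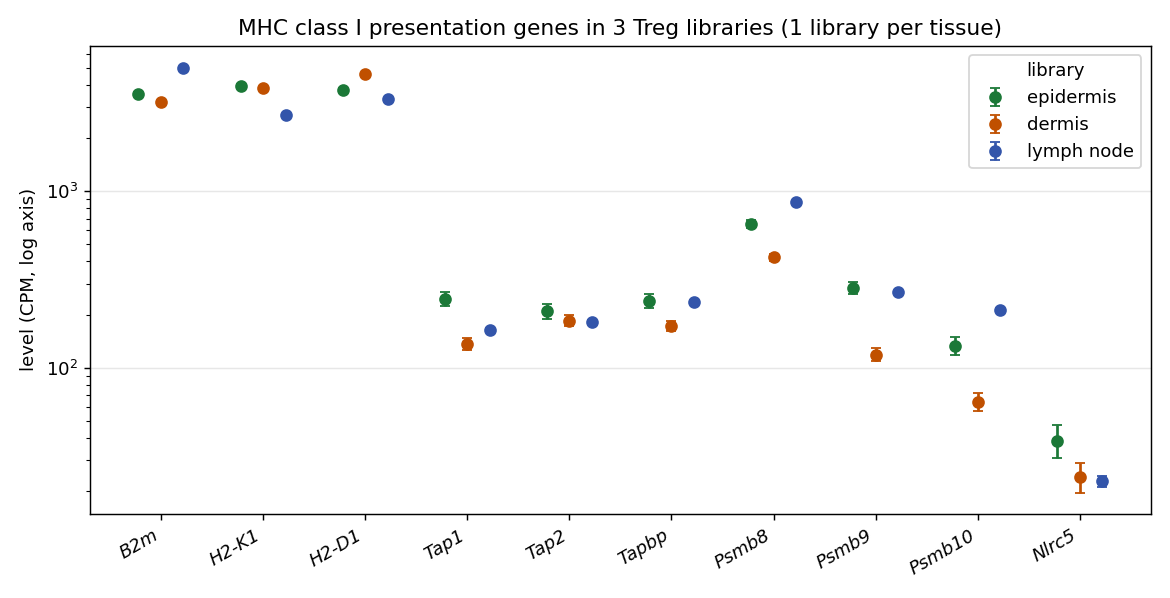
Level of each member (CPM on a log axis) in the epidermal, dermal and lymph node libraries, with exact 95% Poisson intervals, which are narrower than the points for the abundant genes. B2m and both heavy chain genes sit between 2693 and 4999 CPM, and the 3 immunoproteasome genes have their lowest point in dermis.

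B2m and the heavy chains were the 3 most abundant members in every library. B2m stood at 3538 CPM (3460 to 3618) in epidermis, 3181 CPM (3130 to 3233) in dermis, against 4999 CPM (4975 to 5024) in lymph node. The H2-K1 heavy chain stood at 3932 CPM (3849 to 4015) in epidermis, 3847 CPM (3791 to 3904) in dermis, against 2693 CPM (2675 to 2711) in lymph node. For the H2-D1 heavy chain the levels were 3734 CPM (3654 to 3816) in epidermis, 4576 CPM (4514 to 4638) in dermis, against 3309 CPM (3289 to 3329) in lymph node. B2m was thus highest in lymph node, H2-D1 in dermis, and H2-K1 was lower in lymph node than in both skin layers, whose intervals overlapped. Without the shared barcodes, H2-K1 stood at 4135 CPM (4038 to 4234) in epidermis and 3877 CPM (3819 to 3936) in dermis, which did not overlap. H2-D1 was then at 3991 CPM in epidermis and 4647 CPM in dermis, and B2m at 3464 CPM in epidermis and 3214 CPM in dermis.

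The balance of heavy to light chain transcripts set skin apart from lymph node. H2-K1 made up 52.6% (exact 95% interval 51.9 to 53.4) of the H2-K1 and B2m UMIs in epidermis and 54.7% (54.2 to 55.3) in dermis, against 35.0% (34.8 to 35.2) in lymph node. H2-D1 made up 51.4% (50.6 to 52.1) of the H2-D1 and B2m UMIs in epidermis and 59.0% (58.5 to 59.5) in dermis, against 39.8% (39.6 to 40.0) in lymph node. Such a share within a library does not depend on the library total, but the v2 and v3 kits may not capture both genes alike, and this was not tested. Without the shared barcodes, H2-K1 made up 54.4% (53.5 to 55.3) with B2m in epidermis and 54.7% in dermis, and H2-D1 53.5% (52.7 to 54.4) in epidermis and 59.1% in dermis. Between the heavy chains, H2-K1 had 51.3% of their joint UMIs in epidermis, 45.7% in dermis, against 44.9% in lymph node.

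The peptide transport genes lay far lower. Tap1 was highest in epidermis, Tapbp was lowest in dermis, and Tap2 was nearly level. Tap1, 1 chain of the transporter, stood at 245 CPM (225 to 267) in epidermis, 137 CPM (127 to 148) in dermis, against 164 CPM (160 to 169) in lymph node. Tap2, the other chain, stood at 209 CPM (190 to 229) in epidermis, 185 CPM (173 to 198) in dermis, against 182 CPM (177 to 186) in lymph node. Tap1 supplied 54.0% (50.8 to 57.1) of the UMIs of both chains in epidermis and 42.6% (40.1 to 45.1) in dermis, against 47.5% (46.6 to 48.4) in lymph node. Tapbp, the peptide loading factor tapasin, stood at 239 CPM (219 to 261) in epidermis and 173 CPM (161 to 185) in dermis, with 236 CPM (230 to 241) in lymph node.

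All 3 immunoproteasome genes were lowest in dermis. Psmb8, which takes the place of Psmb5, stood at 652 CPM (619 to 687) in epidermis, 423 CPM (405 to 442) in dermis, against 863 CPM (853 to 874) in lymph node. Psmb9, which takes the place of Psmb6, stood at 283 CPM (261 to 306) in epidermis, 119 CPM (109 to 129) in dermis, against 268 CPM (262 to 273) in lymph node. Psmb10, which takes the place of Psmb7, stood at 133 CPM (118 to 149) in epidermis, 64.4 CPM (57.3 to 72.1) in dermis, against 213 CPM (208 to 218) in lymph node. Without the shared barcodes, Psmb8 stood at 612 CPM in epidermis and 423 CPM in dermis, Psmb9 at 241 CPM (218 to 266) in epidermis and 118 CPM in dermis, and Psmb10 at 134 CPM in epidermis and 64.1 CPM in dermis. In all cells the intervals of the 3 tissues did not overlap for Psmb8 or Psmb10, while epidermis and lymph node did overlap for Psmb9.

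Set against the subunit each one replaces, dermis kept the lowest share. Psmb9 made up 64.7% (61.6 to 67.7) of the Psmb9 and Psmb6 UMIs in epidermis and 50.6% (47.6 to 53.6) in dermis, with 53.5% (52.8 to 54.3) in lymph node. Psmb10 made up 58.4% (53.9 to 62.7) of the Psmb10 and Psmb7 UMIs in epidermis and 46.7% (42.8 to 50.7) in dermis, with 62.8% (61.9 to 63.7) in lymph node. Psmb8 varied least, at 77.8% (75.8 to 79.6) of the Psmb8 and Psmb5 UMIs in epidermis, 75.5% (73.8 to 77.2) in dermis, against 81.3% (80.9 to 81.7) in lymph node. Without the shared barcodes, Psmb9 made up 64.0% in epidermis and 50.7% in dermis, and Psmb10 61.8% in epidermis and 46.8% in dermis. The dermal and lymph node intervals overlapped for Psmb9, as did the epidermal and dermal intervals for Psmb8.

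Nlrc5 was the rarest member, with 85 UMIs in epidermis, 111 in dermis, against 750 in lymph node. That came to 38.5 CPM (30.8 to 47.7) in epidermis, 24 CPM (19.7 to 28.9) in dermis, against 22.8 CPM (21.2 to 24.5) in lymph node. Dermis and lymph node did not differ beyond counting error.

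The order of the members differed between libraries, also among the 3 most abundant. The most abundant was H2-K1 in epidermis, H2-D1 in dermis and B2m in lymph node. Without the shared barcodes, the epidermal intervals of H2-K1 (4038 to 4234 CPM) and H2-D1 (3896 to 4088 CPM) overlapped. The order after H2-K1, H2-D1, B2m and Psmb8 in epidermis was Psmb9, Tap1, Tapbp, Tap2, Psmb10 and Nlrc5. In dermis it was Tap2, Tapbp, Tap1, Psmb9, Psmb10 and Nlrc5, so Psmb9 fell behind all 3 transport genes. In lymph node it was Psmb9, Tapbp, Psmb10, Tap2, Tap1 and Nlrc5. In epidermis the intervals of Psmb9, Tap1, Tapbp and Tap2 each overlapped that of the next. Overlapping neighbours were also Tap2 and Tapbp as well as Tap1 and Psmb9 in dermis, but none of these 6 in lymph node. CPM is not divided by gene length, since 3′ kits count transcript ends.

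The first comparison set epidermal beside dermal Tregs, both from v3 libraries. The limit for counting a gene was a difference of at least 2-fold, with at least 50 CPM in the higher library. Psmb9 was 2.38-fold higher in epidermis (95% interval of the ratio 2.12 to 2.68) and Psmb10 2.06-fold higher (1.75 to 2.43). So 2 of the 10 members were counted as higher, against 2.71% of the 3064 genes at 50 CPM or more, and 0 as lower, against 4.54% of those genes. The interval of Psmb10 reached below 2-fold.

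Another 7 members leaned the same way without reaching 2-fold, while H2-D1 leaned the other way. The ratios were 1.79 (1.59 to 2.01) for Tap1, 1.61 (1.20 to 2.15) for Nlrc5, 1.54 (1.44 to 1.65) for Psmb8 and 1.39 (1.24 to 1.55) for Tapbp. They were 1.13 (1.01 to 1.27) for Tap2, 1.11 (1.08 to 1.14) for B2m and 1.02 (0.996 to 1.05) for H2-K1, whose interval spanned equal levels. The log2 ratio of H2-K1 turned to -0.07 under TMM or median-of-ratios scaling. It reached 0.25 in cells with a Y-linked and no Xist UMI. H2-D1 had a ratio of 0.816 (0.796 to 0.837). The median log2 ratio was 0.55 over the 10 members and 0.01 over all genes at 50 CPM or more.

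With cells thinned to 1500 UMIs each, 2 members were again counted but not the same 2, as Nlrc5 reached a log2 ratio of 1.26 and Psmb10 had 0.90. The call on Psmb9 held under all 15 alternatives tried, at log2 ratios of 1.02 to 1.39, and that on Psmb10 under 8, at 0.63 to 1.16. Removing all 41 shared barcodes, or only the shallower copy of each, left 2 members counted; Psmb9 then had a log2 ratio of 1.04 without all copies and 1.29 without the shallower ones.

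Sex-linked transcripts gave a split within each skin library, as the animals were not all of 1 sex. Of the epidermal cells, 101 had a Y-linked UMI without one of Xist and 111 the reverse, against 55 and 723 of the dermal cells, and 0 and 7086 of the lymph node cells. In cells with Y-linked transcripts, Psmb10 stood at 175 CPM, against 92.9 CPM in Xist cells of epidermis, a ratio of 1.88 (1.42 to 2.51). In dermis it stood at 96.0 CPM in cells with Y-linked transcripts, against 60.1 CPM in Xist cells, a ratio of 1.60 (1.04 to 2.37). These ratios were, without the shared barcodes, 1.67 (1.20 to 2.32) in epidermis and 1.57 (1.01 to 2.35) in dermis. Between tissues, the log2 ratio of Psmb10 was 0.63 in Xist cells and 0.87 in Y-linked cells, below the pooled 1.05 in both. Psmb9 stayed at 1.39 in Xist cells and 1.26 in Y-linked cells, and Tap1 was at 1.04 in Xist cells and 0.48 in Y-linked cells. The sex shares moved with tissue, and the number of animals behind each sex is unknown.

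Other class I pathway genes stood near the all-gene median between the skin layers. Of 14 with at least 50 CPM, 1 was higher and 1 lower. Of all genes, 2.71% were higher and 4.54% lower. The median log2 ratio of the 14 was 0.10. Psme2, part of the interferon-inducible proteasome activator, was 2.01-fold higher in epidermis. None of the 14 core genes of the standard proteasome was counted, though 13 lay above equal levels, with a median of 0.41. Psmb5, Psmb6 and Psmb7 had ratios of 1.36, 1.33 and 1.29, each smaller than that of the subunit which replaces it. The 7 other MHC heavy chain genes at 50 CPM or more had 0 counted and a median of 0.01.

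Of 15 interferon-induced genes at 50 CPM or more, 5 passed the limit upwards in epidermis over dermis, against 2.71% of all genes, and 0 downwards, with a median log2 ratio of 0.84. They included Iigp1 at 67.1 CPM in epidermis and 15.3 CPM in dermis, Irgm1 at 56.7 CPM in epidermis and 19.4 CPM in dermis, and Ifi47 at 177 CPM in epidermis and 65.0 CPM in dermis, all GTPases induced by interferon gamma. Among the 16 regulators of class I genes, 1 was higher and 1 lower in epidermis, against 2.71% and 4.54% of all genes. The lower one was Jak2, a kinase of the interferon gamma receptor, 2.51-fold lower at 55.3 CPM in epidermis and 139 CPM in dermis. Irf1, which binds class I promoters, had a ratio of 0.933.

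Between epidermal and lymph node Tregs, none of the 10 members was counted as higher or lower, against 18.6% of 3067 genes higher and 3.42% lower in epidermis. The median log2 ratio was 0.13 over the members and 0.14 over all genes. H2-K1 had a ratio of 1.46 (1.43 to 1.49), Tap1 of 1.49 (1.36 to 1.63) and Nlrc5 of 1.69 (1.34 to 2.12). At the other end, Psmb10 had a ratio of 0.623 (0.553 to 0.701), B2m of 0.708 (0.692 to 0.724) and Psmb8 of 0.755 (0.716 to 0.796). Ratios were 1.13 for H2-D1, 1.15 for Tap2, 1.06 for Psmb9 and 1.02 for Tapbp, and each of these 4 fell below 1 under TMM and median-of-ratios scaling. Under those scalings Psmb10 reached log2 ratios of -1.16 and -1.05 and was counted as lower, as it was among Xist cells, at -1.17. Without the shared barcodes no member was counted, but Psmb9 turned to a log2 ratio of -0.15, against 0.08 with them, and Nlrc5 reached 1.00, against 0.76 with them, at 45.5 CPM in epidermis and so under the 50 CPM limit.

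Some neighbours of the members were counted between epidermis and lymph node. The counts below stand beside 18.6% of all genes at 50 CPM or more counted as higher in epidermis and 3.42% as lower. Of the 7 other heavy chain genes, 2 were counted as higher in epidermis. H2-T23, a class Ib molecule that inhibits natural killer cells, stood at 612 CPM in epidermis and 131 CPM in lymph node, 4.68-fold higher, and H2-Q10 at 53.1 CPM in epidermis and 2.22 CPM in lymph node. For H2-T23, 16.1% of the 90-base windows at its transcript ends also occurred in other genes, so its counts are less certain. Reads of H2-T23 and H2-Q10 were, like those of H2-K1 and H2-D1, counted on the C57BL/6 genome. The effect of this on their counts was not tested. Regulators had 4 of 16 genes higher, among them Prdm1, which encodes the repressor Blimp-1, at 72.1 CPM in epidermis and 9.63 CPM in lymph node, and 0 lower. Interferon-induced genes had 1 of 21 higher and 4 lower with a median of -0.26, the lower ones being Tgtp1, Usp18, Ifit1 and Tgtp2, with inverse ratios of 5.58, 3.93, 3.72 and 2.69. The other pathway genes Ide and Tpp2, both peptidases, were 2.51-fold and 2.21-fold higher in epidermis, and the standard proteasome had 0 of 14 with a median of -0.27.

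Dermal Tregs had fewer immunoproteasome transcripts than lymph node Tregs. Psmb8 was 2.04-fold lower in dermis (1.95 to 2.14), Psmb9 2.25-fold lower (2.07 to 2.46) and Psmb10 3.31-fold lower (2.95 to 3.73). These 3 of 10 members were counted as lower, against 9.55% of 3203 genes, and 0 as higher, against 26.0% of those genes. B2m had a ratio of 0.636 (0.626 to 0.647), Tapbp of 0.733 (0.680 to 0.788) and Tap1 of 0.834 (0.767 to 0.905). H2-K1 at 1.43 (1.41 to 1.45) and H2-D1 at 1.38 (1.36 to 1.40) were higher, also under every scaling tried. Tap2 at 1.02 (0.946 to 1.09) and Nlrc5 at 1.05 (0.854 to 1.29) spanned equal levels.

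The median log2 ratio of the members in dermis over lymph node was -0.36, against 0.15 for all genes. Psmb9 and Psmb10 were counted under all 14 alternatives tried, and Psmb8 under 13, the exception being the stricter mitochondrial limit, with a log2 ratio of -0.92. Under TMM scaling B2m was counted as well, at -1.03. Each library enters 2 of the 3 comparisons, so these are not independent.

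**Figure D2:**
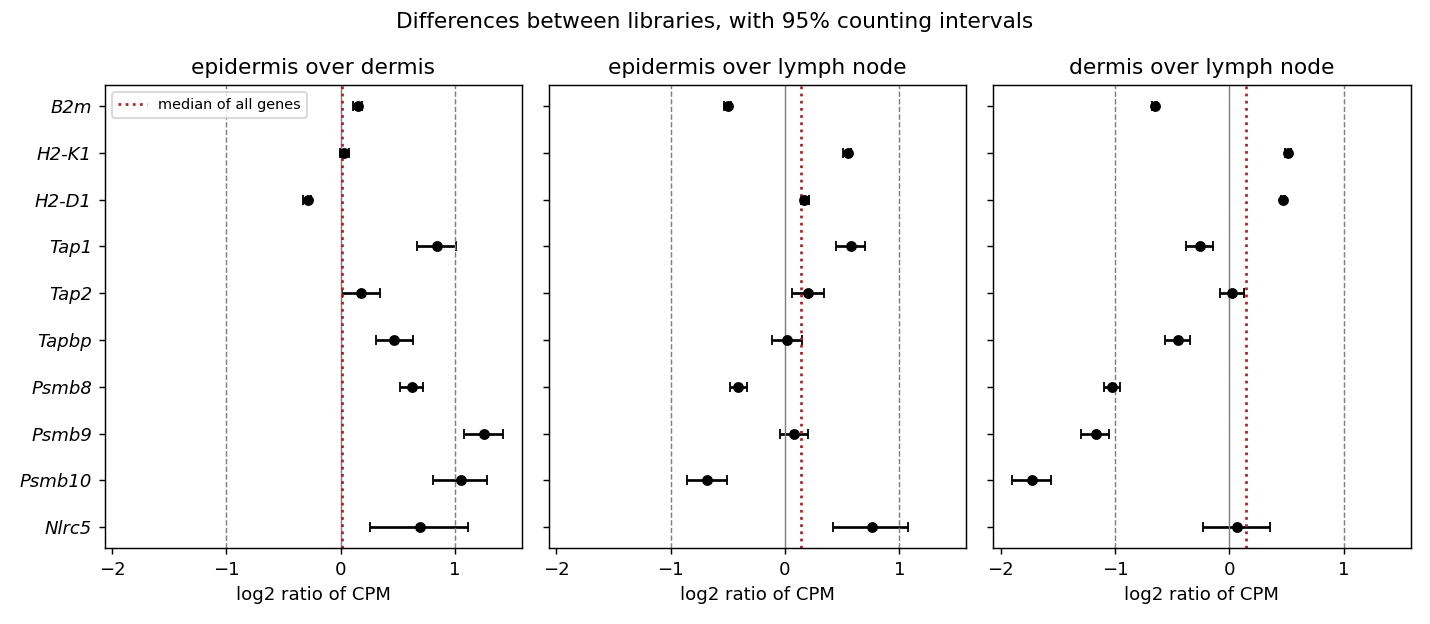
Log2 ratio of CPM for each member between pairs of libraries, with 95% counting intervals, dashed lines at 2-fold and a dotted line at the median of all genes. Psmb9 and Psmb10 lie beyond 2-fold in epidermis over dermis, no member does in epidermis over lymph node, and Psmb8, Psmb9 and Psmb10 do in dermis over lymph node.

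Of the 14 genes of the standard proteasome, 2 were counted as lower in dermis than in lymph node, Psma1 by 2.21-fold and Psmb6 by 2-fold, and the median log2 ratio was -0.69. Of all genes at 50 CPM or more, 9.55% were counted as lower in dermis and 26.0% as higher. Psmb5 and Psmb7, at inverse ratios of 1.45 and 1.72, were not counted. Of 20 interferon-induced genes, 11 were lower in dermis and 0 higher, with a median of -1.17, and the widest differences were in Tgtp1, an interferon-induced GTPase gene (2.81 CPM in dermis, against 53.1 CPM in lymph node), and Usp18, which dampens the type I interferon receptor (2.81 CPM in dermis, against 51.7 CPM in lymph node). Ifit1, a sensor of viral RNA, stood at 6.70 CPM in dermis, against 74.2 CPM in lymph node. Other pathway genes went both ways, with 4 of 15 higher, near the share of all genes, and 3 lower. The endoplasmic reticulum chaperone gene Hspa5 was 2.50-fold higher in dermis, and Ctss, which encodes the lysosomal protease cathepsin S, 2.27-fold lower. H2-T23 was 4.09-fold higher in dermis, at 536 CPM against 131 CPM in lymph node, and 5 of 15 regulators were higher and 1 lower, with Jak2 at 139 CPM in dermis, against 12.6 CPM in lymph node.

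Per-cell values were compared after each cell was thinned to 1500 UMIs, which left out 35 epidermal, 47 dermal and 92 lymph node cells. B2m, H2-K1 and H2-D1 were found in 97.0% to 99.8% of thinned cells in all 3 libraries. Psmb8 was found in 57.6% (51.4 to 63.7) of 262 epidermal, 43.7% (40.3 to 47.2) of 828 dermal and 71.2% (70.3 to 72.1) of 9308 lymph node cells. Without thinning those shares were 82.8% in epidermis, 74.7% in dermis, against 89.6% in lymph node.

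Psmb9 was found in 32.1% (26.5 to 38.1) of thinned epidermal cells, 16.4% (14.0 to 19.1) of dermal, against 32.0% (31.0 to 32.9) of lymph node cells, and without thinning in 64.3% of epidermal and 55.0% of lymph node cells. Psmb10 was found in 15.6% (11.5 to 20.6) of epidermal, 8.70% (6.87 to 10.8) of dermal, against 27.1% (26.2 to 28.0) of lymph node cells, or without thinning 44.8% of epidermal, 23.2% of dermal, against 48.3% of lymph node cells. Tap1 was found in 29.8% (24.3 to 35.7) of thinned epidermal, 17.5% (15 to 20.3) of dermal, against 21.3% (20.5 to 22.1) of lymph node cells, or without thinning 66.7% of epidermal, 44.0% of dermal, against 39.1% of lymph node cells. Without the shared barcodes, 232 thinned epidermal and 811 thinned dermal cells were left. Psmb8 was then found in 56.9% of epidermal and 43.4% of dermal cells, Psmb9 in 30.2% of epidermal and 16.2% of dermal, Psmb10 in 15.9% of epidermal and 8.26% of dermal, and Tap1 in 29.7% of epidermal and 17.6% of dermal cells. The immunoproteasome genes thus had their smallest share of positive cells in dermis, as they had their lowest CPM. Because nearly all nucleated cells carry class I molecules, no cell type here gives a background share from free RNA.

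B2m, H2-K1 and H2-D1 also varied more from cell to cell in skin. At 1500 UMIs per cell, H2-K1 had a mean of 6.68 UMIs in epidermis with a variance 2.54 times the mean, 5.99 UMIs in dermis with 2.76 times, and 4.19 UMIs in lymph node with 1.43 times. The variance of H2-D1 was 2.68 times its mean in epidermis, 2.08 times in dermis, against 1.48 times in lymph node, and that of B2m 2.35, 1.81 and 1.69 times in the epidermal, dermal and lymph node libraries. The 5th and 95th percentiles of H2-K1 were 1.00 and 13.0 UMIs in epidermal and in dermal cells, and 1.00 and 9 UMIs in lymph node cells. A ratio of 1 is what counting alone gives. For the other 7 members it was 1.02 to 1.49 in epidermis and 0.966 to 1.33 in dermis, against 1.03 to 1.12 in lymph node. The ratio without the shared barcodes was 2.61 in epidermis and 2.77 in dermis for H2-K1, 2.80 in epidermis and 2.06 in dermis for H2-D1, and 2.18 in epidermis and 1.80 in dermis for B2m.

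Clusters of cells within each library, made without the 10 members, showed where levels were high. Of 28 clusters, 26 held at least 50 cells: 4 in epidermis, 10 in dermis, against 12 in lymph node. They share their library, differ in depth, and are described with no test, since genes that accompany the members helped to make them. The shared barcodes were spread unevenly, with 24 of the 45 cells of epidermal cluster 5, which was under the size limit, and 23 of the 55 cells of dermal cluster 10.

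In epidermis, Psmb10 stood apart from the other members. Cluster 1 held 81 cells, was led by Scgb1a1, Bcl2, Igfbp4 and Tcf7, and was called resting Treg-like from 6 markers among its 10 leading genes. It had the lowest B2m, at 2441 CPM against 4679 CPM in the highest cluster, and the lowest H2-D1, at 2703 CPM against 5224 CPM. The same cells had the highest Psmb10, at 198 CPM, against 81.8 CPM in the lowest cluster, a 2.42-fold range. Psmb8 ranged 1.17-fold, from 588 to 689 CPM, over the clusters of at least 50 cells. Cluster 5, called cycling-like and left out at 45 cells, had 734 CPM of Psmb8 and 368 CPM of Psmb9. Without its 24 shared barcodes it had 586 CPM of Psmb8 and 181 CPM of Psmb9, the latter from 21 UMIs. Over the 4 clusters Psmb10 had an r of -0.83 with the mean of the other members and Psmb8 of -0.28, against 0.69 to 0.98 for B2m, H2-K1, H2-D1, Tap1, Tap2, Tapbp and Psmb9, and 0.11 for Nlrc5. Clusters 2 and 4, led by Cxcr4 and Fos and by Ccl4, Alpk2 and Cxcl10, held the highest sums, at 15977 and 16023 CPM, while cluster 1 had 10163 CPM. The same sums without the shared barcodes were 16056 CPM in cluster 2, 15497 CPM in cluster 4 and 10144 CPM in cluster 1, with Psmb10 at 202 CPM in cluster 1.

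In dermis, the heavy chains were more even than the rarer members, the immunoproteasome among them. H2-D1 ranged 1.27-fold, B2m 1.34-fold and H2-K1 1.38-fold over the 10 clusters, against 2.95-fold for Psmb8, 3.90-fold for Psmb9 and 3.82-fold for Psmb10. Tap1 ranged 2.81-fold, Tap2 1.87-fold and Tapbp 1.79-fold, and Nlrc5 11.3-fold from a low of 1 UMI. Counting error widens the ranges of rare genes more. Cluster 5 (72 cells, led by Ifng, Tnfsf8 and Gimap4 and holding Rtp4, Ifit1 and Iigp1 among its 10 leading genes) was highest for all 3, at 651 CPM of Psmb8, 258 of Psmb9 and 146 of Psmb10. It was also highest for B2m at 3828 CPM, H2-K1 at 4425 CPM, Tap1 at 216 CPM, Tap2 at 256 CPM and Nlrc5 at 43.7 CPM, a value that rested on 21 UMIs. Of its cells, 2 were shared barcodes, and without them Psmb8 stood at 651 CPM, Psmb9 at 257 CPM and Psmb10 at 146 CPM.

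The dermal low point was cluster 3 (104 cells, led by Mgarp, Sfn and Slc26a2), with 221 CPM of Psmb8, 66.2 of Psmb9 and 38.2 of Psmb10, the last from 15 UMIs. Only for Psmb8 (177 to 273) did its interval lie below those of all other clusters. For Psmb9 (43.2 to 97.0) and Psmb10 (21.4 to 63.0) it overlapped others, among them cluster 2, at 79.5 and 39.0 CPM. The H2-D1 level of cluster 3 was 4847 CPM, above the 4623 CPM of cluster 5, while its H2-K1, at 3834 CPM, and its B2m, at 2902 CPM, were below those of cluster 5. Median depth was 6301.5 UMIs per cell in cluster 5 and 3976 in cluster 3. The part of depth in this difference was not tested. Cluster 1 of dermis was led by Krt14, Fabp4 and Acta2, genes of other skin cells, and had 453 CPM of Psmb8, 132 of Psmb9 and 51.0 of Psmb10.

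In lymph node, B2m and the heavy chains were highest in another cluster than the immunoproteasome genes. Cluster 5 (866 cells, called effector or tissue Treg-like and led by Gzmb, S100a4 and Klrg1) had the highest B2m at 6992 CPM, H2-K1 at 3504 CPM, H2-D1 at 4625 CPM and Tap1 at 246 CPM. Cluster 6 (861 cells, called type I interferon-responding Treg-like and led by Ifit1, Ifit3 and Isg15) had the highest Psmb8 at 1101 CPM, Psmb9 at 358 CPM, Psmb10 at 316 CPM, Tapbp at 348 CPM and Nlrc5 at 34.1 CPM. In cluster 6 the heavy chains were near their library level, at 2672 CPM of H2-K1 and 3304 CPM of H2-D1. In cluster 5 Psmb10, at 198 CPM, was below its library level of 213 CPM. Psmb8, at 922 CPM, and Psmb9, at 335 CPM (317 to 354), were above their library levels of 863 and 268 CPM there. The Psmb9 interval of cluster 5 overlapped that of cluster 6 (336 to 381). Cluster 7, led by Gsta4 and Capn3, was lowest for B2m, H2-K1 and H2-D1, at 4158, 2174 and 2714 CPM.

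**Figure D3:**
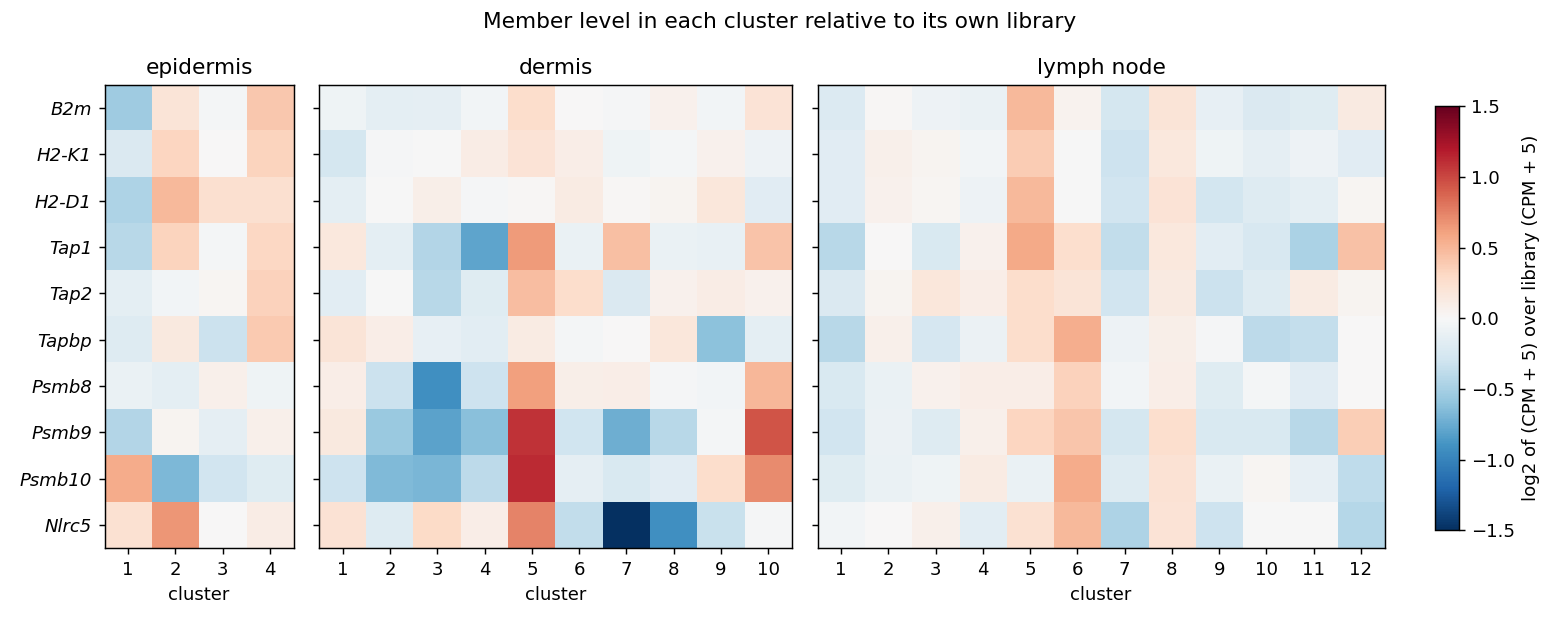
Log2 level of each member in each cluster of at least 50 cells relative to its own library (5 CPM added to both), for epidermis, dermis and lymph node. Dermal cluster 5 is high and cluster 3 low in the immunoproteasome rows, lymph node cluster 5 is high in the B2m, H2-K1, H2-D1 and Tap1 rows, and lymph node cluster 6 is high in the Psmb rows, Tapbp and Nlrc5.

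Across the 26 clusters, each centred on its library, Pearson's r was above 0 for 44 of the 45 pairs of members. The share of positive r among pairs of other genes was not computed, so this count does not set the members apart. It was 0.77 to 0.82 among H2-D1, H2-K1 and B2m, and 0.67 to 0.79 among Psmb8, Psmb9 and Psmb10. Psmb9 and Tap1, whose promoter windows overlap, had 0.74, as did Psmb10 and Psmb8, and Tap1 and B2m had 0.75. Between Psmb10 and H2-D1 it was -0.28, and between Psmb8 and H2-D1 0.02. Against the mean of the other 9 members, Psmb9 had the highest r, 0.86, and Nlrc5 the lowest, 0.32. Within dermis alone H2-D1 had an r of -0.34 with the others and in lymph node 0.81. These values describe clusters that share libraries and depth, and carry no test.

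Of 1878 other genes ranked by likeness to the members' mean over those clusters, the 10 nearest included Igtp and H2-T23 at 0.81, Gbp4 at 0.79, Gbp7 at 0.78, Ifi47 and Dbnl at 0.77, Ly6a at 0.76, and Pla2g16 and AW112010 at 0.75. Igtp, Gbp4, Gbp7 and Ifi47 encode GTPases induced by interferon. For Dbnl, r was -0.43 over the 4 epidermal clusters, so its likeness rested on dermis and lymph node.

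Cells with interferon-induced GTPase transcripts had ratios above 1 for every member against cells without them. The GTPase genes used for this split were Gbp2, Gbp4, Gbp7, Iigp1, Igtp, Irgm1, Ifi47 and Tgtp2. Igtp, Gbp4, Gbp7 and Ifi47 are also among the genes ranked above as nearest to the members in the same cells. The split is therefore not independent of that ranking. At 1500 UMIs per cell, the sum of all 10 was 17740 CPM in 100 epidermal cells with 2 or more UMIs of 8 such genes and 11874 CPM in 95 cells with none, a ratio of 1.49 (1.41 to 1.59). In dermis it was 15693 CPM in 113 cells with such UMIs and 12155 CPM in 483 cells with none, a ratio of 1.29 (1.24 to 1.35). In lymph node it was 14161 CPM in 3376 cells with such UMIs and 12475 CPM in 3088 cells with none, a ratio of 1.14 (1.12 to 1.15).

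Tap1 had ratios of 2.23 (1.39 to 3.68) in epidermis, 1.81 (1.21 to 2.66) in dermis, against 1.52 (1.38 to 1.68) in lymph node. Psmb9 had 1.47 (0.929 to 2.35) in epidermis, 2.28 (1.51 to 3.41) in dermis, against 1.43 (1.32 to 1.54) in lymph node, and B2m 1.55 in epidermis, 1.36 in dermis, against 1.14 in lymph node. All 30 ratios, 10 per library, were above 1. The share of all genes with a ratio above 1 in the same split was not computed, so this count does not set the members apart from other genes. The intervals spanned equal levels for 5 members in epidermis (Tap2, Psmb8, Psmb9, Psmb10 and Nlrc5), 3 in dermis (Tapbp, Psmb10 and Nlrc5) and 0 in lymph node. These ratios were not tested, since cells of 1 library are not replicates. The sum had, without the shared barcodes, ratios of 1.45 (1.36 to 1.54) in epidermis and 1.30 (1.24 to 1.36) in dermis, with all 10 members above 1 in both, and the interval of Psmb10 in dermis no longer spanned equal levels, at 1.95 (1.03 to 3.54).

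The GTPase list was taken after a broader list of 26 interferon-induced genes left only 15 epidermal cells without a UMI. By that broader list the sum of the members had ratios of 1.28 (1.13 to 1.45) in epidermis, 1.16 (1.11 to 1.22) in dermis, against 1.18 (1.13 to 1.24) in lymph node.

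**Figure D4:**
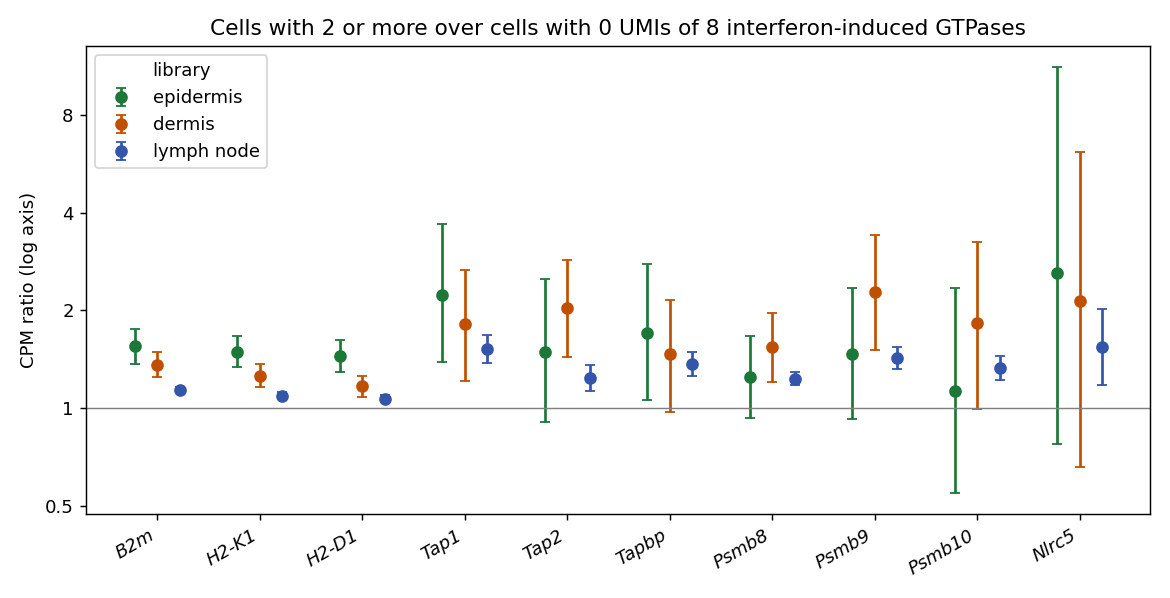
Ratio of member CPM (log axis) in cells with 2 or more UMIs over cells with 0 UMIs of 8 interferon-induced GTPase genes, at 1500 UMIs per cell, in epidermis, dermis and lymph node, with 95% counting intervals. All points lie above 1, with Tap1 at 2.23 in epidermis and Psmb9 at 2.28 in dermis, and the Nlrc5 intervals are the widest.

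Levels also moved with depth inside the epidermal library. The deepest of 3 near-equal groups of epidermal cells had 11701 CPM of all members, against 17160 CPM in the shallowest group, a ratio of 0.682 (0.660 to 0.705). H2-K1 stood at 3361 CPM in the deepest group, against 5655 CPM in the shallowest, and Nlrc5 at 24.4 CPM from 31 UMIs, against 93.4 CPM from 25 UMIs. Psmb8 and Psmb9 ran the other way, with Psmb8 at 735 CPM in the deepest group, against 508 CPM in the shallowest, and Psmb9 at 319 CPM, against 224 CPM. Psmb10 stood at 143 CPM in the deepest group, against 105 CPM in the shallowest, a ratio of 1.37 (0.917 to 2.12) whose interval spanned equal levels. The ratio for all members was 0.862 in dermis, against 0.858 in lymph node, and that of Psmb9 was 1.05 in dermis, against 1.01 in lymph node. Without the shallower copy of each shared barcode, the epidermal ratio for all members was 0.674. Without both copies it was 0.652, and Psmb9 stood at 251 CPM in the deepest epidermal group, against 228 CPM in the shallowest, a ratio of 1.10 whose interval spanned equal levels. The ratio of Psmb9 in dermis was then 1.28 (1.01 to 1.64). The part of depth in the differences between tissues was not tested beyond the thinned values.

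Transcripts of other cell types differed between libraries as well. Dendritic or Langerhans cell markers summed to 450 CPM in epidermis, 507 CPM in dermis, against 226 CPM in lymph node over 10 genes, of which Cd74 gave 365 CPM in epidermis, 360 CPM in dermis, against 182 CPM in lymph node, and Itgax was at 0 in all 3. Keratinocyte markers summed to 60.3 CPM in epidermis, 169 CPM in dermis, against 24.8 CPM in lymph node over 10 genes, with Trp63 at 0 in epidermis and lymph node. CD8 T or NK cell markers summed to 205 CPM in epidermis, 110 CPM in dermis, against 75.6 CPM in lymph node over 7 genes, with Ncr1 at 0 in all 3. Marker sums of the other types (macrophage, fibroblast, endothelial or mural, B, mast cell or neutrophil) were at most 85.1 CPM. Among cells with at least 2 T cell UMIs and at most 3% of other-type UMIs, Psmb9 and Psmb10 had log2 ratios of 1.26 and 1.04 in epidermis over dermis, against 1.25 and 1.05 in all cells kept.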

How the data were processed

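Per the submitters' processing notes, reads were mapped to mm10 by Cell Ranger. File headers give version 4.0.0 for the skin matrices, and for lymph node no version is given in the sources used. The values the authors deposited were counts (UMIs of each gene in each barcode), not normalized. The files listed 360 epidermal, 1077 dermal and 9419 lymph node barcodes, each with at least 500 UMIs. The limit of 10% mitochondrial UMIs removed 63 epidermal, 202 dermal and 19 lymph node barcodes. No doublet caller was run and doublets were left in; an alternative left out cells above the 95th UMI percentile.

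UMIs were summed per library and scaled to CPM, with exact Poisson intervals for a level, exact binomial intervals for a ratio and exact Clopper-Pearson intervals for a share, all at 95%. With 1 library per tissue no test between tissues was run. The 2-fold call and the ratio interval were tested on simulated library counts. A gene counted as higher or lower differed at least 2-fold with at least 50 CPM in the higher library. The members, gene lists and rules were chosen with earlier results of these data known. The text names all 10 members, up to 4 genes per list past 2-fold, the replaced proteasome subunits and the 10 genes most like the members' mean; Irf1 was named after its value was seen. A few genes that this rule would name are not reported here.

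Clusters were made per library without the members (1500 variable genes, 20 components, 15 neighbours, Leiden resolution 1). A type name needed 5 raised markers and 2 among the 10 leading genes; this second limit was set after the clusters were seen, because a dermal cluster led by genes of other skin cells would otherwise have taken a name. Alternatives without shared barcodes, and the GTPase list, were also chosen after seeing the data. H2-Ke6, which the heavy chain list held, was left out of it after the data were seen, since it encodes no MHC heavy chain. Promoter sequences came from the RefSeq table. Tools were Python 3.11.15, numpy 2.4.6, pandas 2.3.3, scipy 1.17.1, scanpy 1.11.5, igraph 0.11.9, matplotlib 3.10.9, R 4.3.3 and edgeR 4.0.16 (TMM factors only).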

Additional observations from a re-analysis of the deposited data

How the results depend on the processing

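Epidermis against dermis: 1 member instead of 2 was counted in cells with a Foxp3 UMI, in cells with a Y-linked and no Xist UMI, with the mean of each cell's CPM, and with median-of-ratios or TMM scaling, in each case Psmb9 without Psmb10. The median log2 ratio was 0.69 with thinned cells, 0.66 with totals that left out mitochondrial and ribosomal protein genes, and otherwise 0.29 to 0.60 over the alternatives run. In Xist cells, 2 members were counted, Psmb9 and Tap1. Epidermis against lymph node: 1 member instead of 0 was counted with thinned cells (Nlrc5, higher) and with median-of-ratios scaling, TMM scaling or Xist cells (Psmb10, lower). The median was 0.01 in cells with a Foxp3 UMI, 0.30 with thinned cells, 0.22 in Xist cells, -0.07 with totals that left out mitochondrial and ribosomal protein genes, -0.24 with median-of-ratios and -0.35 with TMM scaling. Dermis against lymph node: 2 to 4 members were counted, and the median was -0.67 with those reduced totals, -0.62 with median-of-ratios and -0.73 with TMM scaling.

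The same scalings moved the median of all genes, to -0.08 (reduced totals), -0.31 (median-of-ratios) and -0.44 (TMM) in epidermis over lymph node and to -0.26, -0.22 and -0.35 in dermis over lymph node. Relative to these, the members stayed near the other genes in epidermis and below them in dermis. The cause of the other shifts was not tested. No called value changed sign. No paired analysis was possible because each tissue had 1 library and the labels give no replicate numbers; for the same reason no replicate could be left out. Depth limits Nlrc5 most, with 85 epidermal UMIs.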
